A study of Mus musculus with 4 samples.

Results

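The phospholipid and sphingolipid genes examined here were a module of 34 genes, chosen by symbol from the 17013 genes listed for these libraries, and all 34 were found. Of these, 18 make, convert or sense ceramide and sphingosine, and 16 make, remodel or cleave glycerophospholipids. The cells were bone marrow-derived macrophages of wild-type (WT) C57BL/6 male mice. They were grown on Transwell inserts above either of the media made from freeze-thawed abdominal fat, and artificial necrotic bone fluid (aNBF), an extract of freeze-thawed bone and marrow, was added in both groups. Con was the medium from the middle layer of the centrifuged fat, low in fat, and Fat was the medium from the fat-rich top layer. Each medium had 2 libraries, collected after 24 h. Both media came from the same digested tissue, so Con was a low-fat control and no group without necrotic material was analysed. The age of the mice was not given in the sources used here, nor whether the 2 libraries of a medium came from separate animals or cultures, so the p-values measure only the spread between these samples, which may be technical.

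Ceramide is built on a backbone that serine palmitoyltransferase makes from serine and palmitoyl-CoA, and ceramide synthases add acyl chains of different length. Ceramide is then turned into sphingomyelin, glucosylceramide or ceramide-1-phosphate, or broken down to sphingosine, which sphingosine kinases convert to the signalling lipid sphingosine-1-phosphate (S1P). Glycerophospholipids are built from glycerol-3-phosphate through phosphatidate and diacylglycerol. Phosphatidylcholine, the main membrane phospholipid, is then made from diacylglycerol and CDP-choline, and its acyl chains are exchanged by phospholipases and lysophospholipid acyltransferases. In macrophages these pathways supply the membrane of phagosomes and the coat of lipid droplets, and they provide the precursors of platelet-activating factor and eicosanoids.

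The reads recovered per library ran from 33573852 to 40785872, and expression was given as CPM (reads scaled to library size, with a further scaling between libraries by the authors). Fat was compared with Con by limma on log2(CPM + 0.1) over 12470 genes, and a gene was called at an adjusted p under 0.05. Log2 changes are on this scale throughout, Fat minus Con, which understates the change of low genes. The 8 macrophage markers were detected in all 4 libraries. Their summed level was 33920 to 35962 CPM in Con and 26918 to 28504 CPM in Fat, most of it from Lyz2, which had 28720 and 26819 CPM in Con and 21516 and 20347 CPM in Fat and was not called. Both Fat libraries were below Con for 6 of the 8, of which Fcgr1 (log2 change -0.88) and Mertk (-0.31) were called, and the groups overlapped for Cd68 (0.09) and Itgam (0.07). Of all tested genes, 26.2% had both Fat libraries below Con and 5.0% were called lower. In bulk RNA, fewer cells of a type and less RNA per cell cannot be told apart. All 34 members passed the filter on low values, and a member had between 296 and 96297 reads in a library.

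Length-scaled levels (TPM) of the members covered a wide range. Pla2g7, which encodes the secreted platelet-activating factor acetylhydrolase, was far above the rest, with 3089 and 2685 TPM in Con and 2810 and 2716 TPM in Fat. Both Fat libraries lay between the Con libraries. Next came the S1P lyase Sgpl1 at a mean of 379.3 TPM over the 4 libraries, the dihydroceramide desaturase Degs1 at 348.8 TPM and the ceramide synthase Cers2 at 330.7 TPM, and the ranges of Degs1 and Cers2 over the libraries overlapped. The lowest were the acyltransferase Gpam at 5.08 TPM, the ketosphinganine reductase Kdsr at 8.51 TPM and Cers4 at 9.46 TPM. In all, 9 members were above 100 TPM and 3 below 10 TPM. Along this order, 24 neighbouring pairs overlapped in their range over the libraries, so most adjacent members did not differ beyond their spread. The median level was 67.5 TPM for the sphingolipid members and 46.7 TPM for the glycerophospholipid members.

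**Figure D1:**
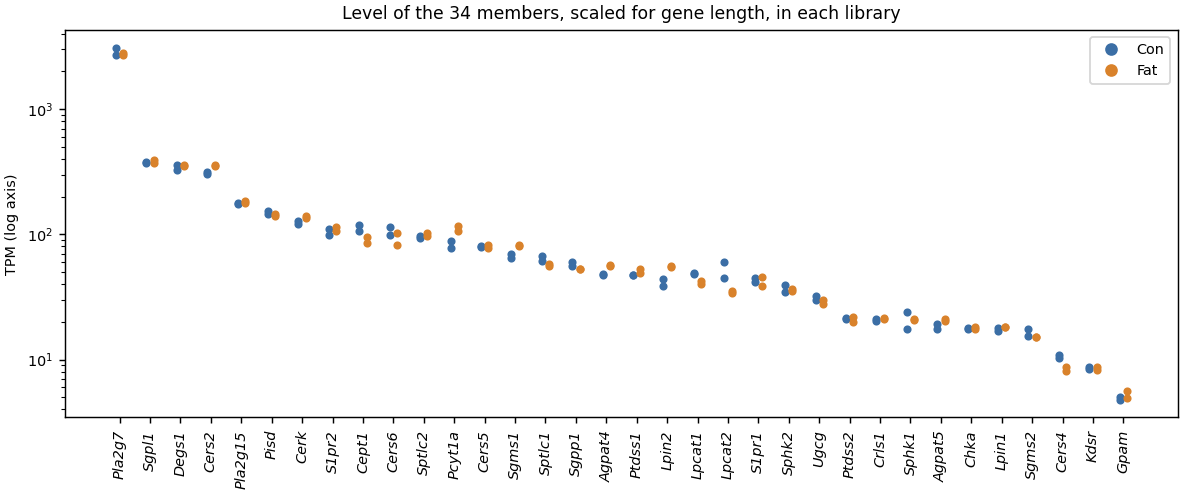
Level of each of the 34 members in TPM on a log axis, with the members ordered by their mean over the 4 libraries. Each point is a library (blue, Con; orange, Fat). Pla2g7 stands at 2685 to 3089 TPM and the next member, Sgpl1, at 368.2 to 393.1 TPM.

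Between Fat and Con, 6 of the 34 members were called, 2 higher and 4 lower in Fat, which is 17.6% of the members beside 9.0% of all tested genes. Among all tested genes 3.99% were called higher and 5.0% lower. Of the 6 members, 5 belonged to the glycerophospholipid arm (31.25% of its 16) and 1, Cers4, to the sphingolipid arm (5.56% of its 18). Whether the arms differ was not tested. The values of Fat and Con did not overlap for 19 members (55.9%), 9 with both Fat libraries above Con and 10 with both below. Among all tested genes 55.6% did not overlap, 29.4% above and 26.2% below, so this count is no result about the members. The median log2 change was -0.02 over the members and 0.01 over all tested genes, and the median absolute change was 0.09 beside 0.12. Most members thus differed little in either direction. The log2 changes of the 34 members lay between -0.62 (Lpcat2) and 0.39 (Pcyt1a).

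**Figure D2:**
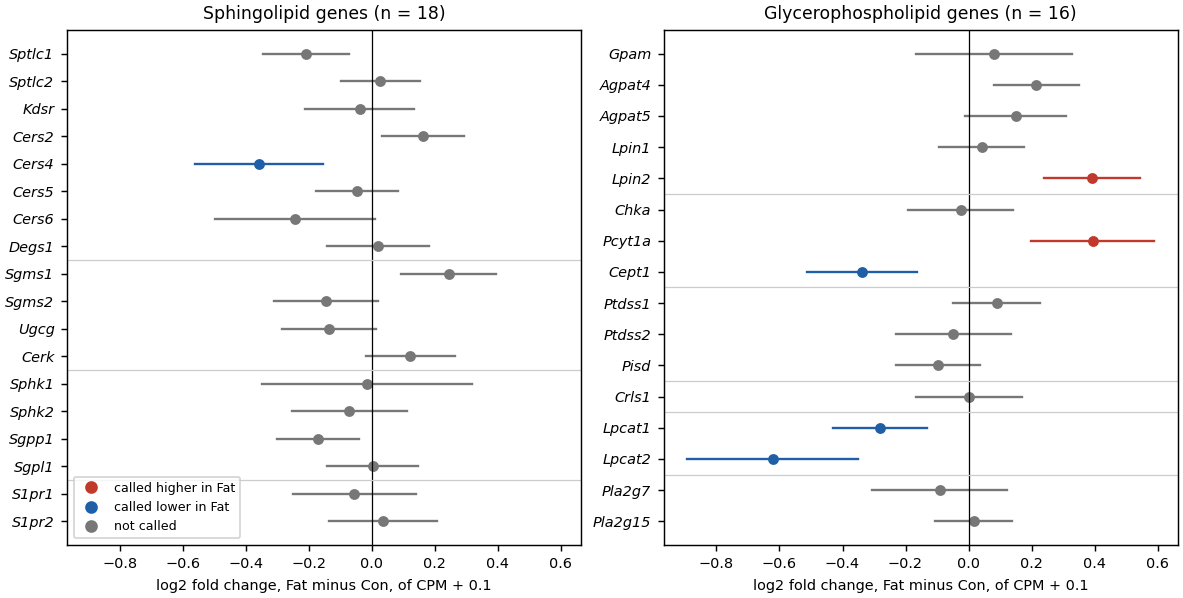
Log2 fold change (Fat minus Con, of CPM + 0.1) of the 18 sphingolipid and 16 glycerophospholipid members, with 95% confidence intervals from limma (2 libraries per group). Grey lines separate the steps of each pathway. The called members are coloured: Cers4 at -0.36 is the only called member on the left, and Lpin2, Pcyt1a, Cept1, Lpcat1 and Lpcat2 lie between -0.62 and 0.39 on the right.

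In the synthesis of phosphatidate and diacylglycerol, Lpin2 rose in Fat. Lpin2 encodes lipin 2, a phosphatidate phosphatase that yields diacylglycerol, and its loss in people causes an inflammatory bone disease, Majeed syndrome. It had 117.9 and 105.9 CPM in Con and 148.5 and 144.7 CPM in Fat, so the lower Fat library was above both Con libraries. The means were 111.9 ± 8.49 CPM in Con and 146.6 ± 2.70 CPM in Fat (SD, n = 2), a log2 change of 0.39 (SE 0.07, adjusted p = 0.0145). Its paralog Lpin1 had 46.4 and 44.9 CPM in Con and 47.0 CPM in each Fat library, a log2 change of 0.04 (95% interval -0.09 to 0.18, adjusted p = 0.713). The acyltransferases before this step were not called. Agpat4 had 42.1 and 41.9 CPM in Con and 48.3 and 49.3 CPM in Fat (log2 change 0.21, adjusted p = 0.0625), and Agpat5 had a log2 change of 0.15 (adjusted p = 0.240). Gpam, which encodes the mitochondrial enzyme of the first acylation, had 8.73 and 8.50 CPM in Con and 9.73 and 8.54 CPM in Fat (log2 change 0.08, 95% interval -0.17 to 0.33). All 5 members of this step had a positive log2 change, of which 1 was called. Among the 12470 tested genes, 6680 had a positive log2 change and 9.0% were called. Whether the step changed as a set was not tested.

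The choline branch held called members in both directions. Pcyt1a encodes the enzyme that makes CDP-choline from phosphocholine, the rate-limiting step of the pathway. It rose from 183.2 and 213.4 CPM in Con to 271.7 and 248.7 CPM in Fat, with means of 198.3 ± 21.4 and 260.2 ± 16.2 CPM (SD, n = 2) and a log2 change of 0.39 (SE 0.08, adjusted p = 0.0292). Cept1, whose product carries out the last step and joins CDP-choline or CDP-ethanolamine to diacylglycerol, fell. Its values were 151.1 and 136.8 CPM in Con and 120.1 and 107.7 CPM in Fat, with means of 144.0 ± 10.1 and 113.9 ± 8.72 CPM (SD, n = 2) and a log2 change of -0.34 (SE 0.07, adjusted p = 0.0341). The groups did not overlap for either gene. Chka, the choline kinase at the start of the branch, lay between 21.1 and 22.3 CPM in all 4 libraries (log2 change -0.02, 95% interval -0.19 to 0.14). The ratio of Pcyt1a to Cept1 in TPM was 0.647 and 0.833 in Con and 1.21 and 1.23 in Fat, so the order of the 2 genes by length-scaled level differed between the media. Ratios between members were looked at after their values were known and carry no test.

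Both acyltransferases of the module that return acyl chains to lysophosphatidylcholine fell in Fat. Lpcat2, whose product also makes platelet-activating factor in inflammatory cells, showed the largest absolute change of the 34 members. It had 77.4 and 58.9 CPM in Con and 44.3 and 43.4 CPM in Fat, with means of 68.1 ± 13.1 and 43.9 ± 0.650 CPM (SD, n = 2) and a log2 change of -0.62 (SE 0.12, adjusted p = 0.0205). The Con libraries were well apart and both were above Fat. Lpcat1 had 36.1 and 36.3 CPM in Con and 30.5 and 29.1 CPM in Fat, with means of 36.2 ± 0.111 and 29.8 ± 1.04 CPM (SD, n = 2) and a log2 change of -0.28 (SE 0.06, adjusted p = 0.0369). The TPM ratio of Lpcat1 to Lpcat2 was 0.815 and 1.08 in Con and 1.20 and 1.17 in Fat.

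**Figure D3:**
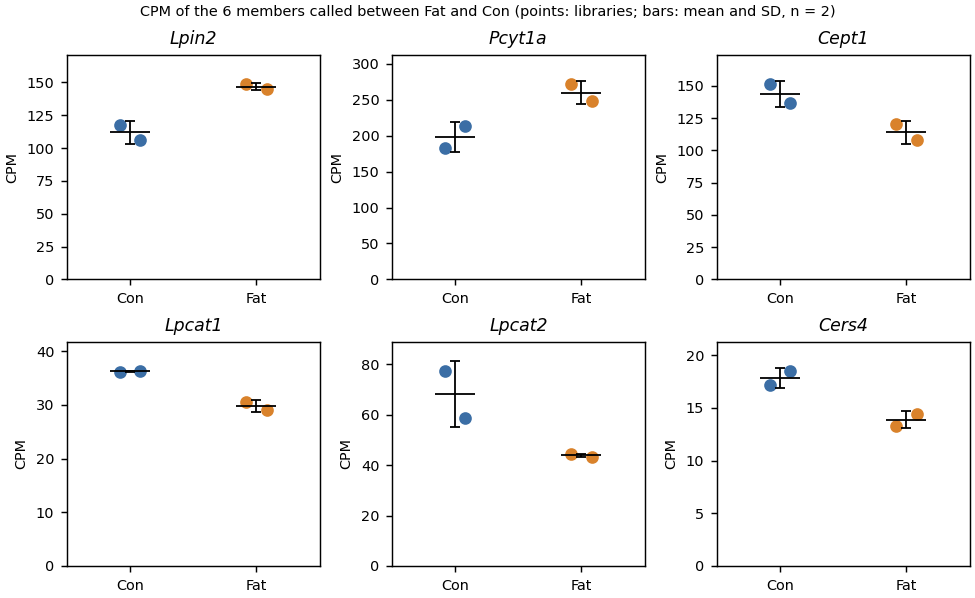
CPM of the 6 called members in each library (points; blue, Con; orange, Fat), with the mean and SD of the 2 libraries of each medium (black). In each panel the groups do not overlap, with both Fat libraries above Con for Lpin2 and Pcyt1a and below Con for Cept1, Lpcat1, Lpcat2 and Cers4.

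The promoters of 4 called members are shown so that their sequences can be set beside the changes: Lpin2 and Pcyt1a, the members that rose, and the paralogs Lpcat2 and Lpcat1, which fell. Those of Cept1 and Cers4, which also fell, held none of the motifs described next and are not printed. Each is the run of 250 bases before a gene start in RefSeq (GRCm38.p6), plus strand for all 4 genes, with capitals marking a motif found. For Lpin2 and Pcyt1a, each with 3 starts in RefSeq, the most upstream one is given. The positions are chr17:71183282-71183531 for Lpin2, chr16:32430671-32430920 for Pcyt1a, chr8:92855083-92855332 for Lpcat2 and chr13:73466981-73467230 for Lpcat1.
Lpin2: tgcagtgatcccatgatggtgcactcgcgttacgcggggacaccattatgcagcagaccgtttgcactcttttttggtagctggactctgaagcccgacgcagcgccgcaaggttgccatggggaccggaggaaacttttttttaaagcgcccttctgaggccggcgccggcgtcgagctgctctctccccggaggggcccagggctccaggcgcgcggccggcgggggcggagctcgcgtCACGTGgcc
Pcyt1a: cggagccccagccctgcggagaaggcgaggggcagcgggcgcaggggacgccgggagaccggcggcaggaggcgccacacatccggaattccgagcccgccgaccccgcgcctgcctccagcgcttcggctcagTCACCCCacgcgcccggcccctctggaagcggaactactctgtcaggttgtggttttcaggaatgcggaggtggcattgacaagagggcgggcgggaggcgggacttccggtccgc
Lpcat2: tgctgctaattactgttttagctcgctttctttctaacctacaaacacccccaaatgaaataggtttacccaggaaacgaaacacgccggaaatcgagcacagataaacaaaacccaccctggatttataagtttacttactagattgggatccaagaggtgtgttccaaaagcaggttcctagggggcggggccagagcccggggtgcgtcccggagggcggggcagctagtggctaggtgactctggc
Lpcat1: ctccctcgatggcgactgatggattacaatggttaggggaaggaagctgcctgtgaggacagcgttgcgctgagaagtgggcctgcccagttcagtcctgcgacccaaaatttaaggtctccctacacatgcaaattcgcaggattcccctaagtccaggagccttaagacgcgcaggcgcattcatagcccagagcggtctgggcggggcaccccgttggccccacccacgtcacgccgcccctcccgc

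The Lpin2 sequence holds an E-box (CACGTG) that begins 9 bases before the start. The Pcyt1a sequence holds TCACCCC, the core of a sterol response element, beginning 116 bases before the start. The Lpcat2 and Lpcat1 sequences hold none of the motifs searched. Beside the E-box and the sterol core these were AGGTCA repeated after 1 or after 4 bases, as bound by nuclear receptors, and a repeat of GAAA after 2 bases, as in interferon response elements, all searched on both strands. Of the 31 members with a RefSeq promoter, 7 held the E-box (22.6%): Cers2, Cers6, Crls1, Degs1, Lpin2, Sgms2 and Sphk1. The E-box was present for 9.95% of the 9348 tested genes with a promoter and for 6.86% of all 27025 genes with one. The sterol core was present for 4 members, Gpam, Pcyt1a, Sgms2 and Sphk1 (12.9%), beside 5.36% of the tested genes and 4.91% of all genes. In Sphk1 both motifs were present in the same promoters without overlap. The AGGTCA repeats and the GAAA repeat were found for none of the 31 members, and for 0.0407%, 0.0148% and 3.46% of all genes. Every promoter of a gene was searched, and a gene was counted where any of them held the motif. The 31 members had 54 promoters and all 27025 genes had 32851, so members had more promoters per gene in which to match. The shares were not adjusted for this. Among the 7 members with the E-box, Lpin2 was the only called gene, and among the 4 with the sterol core it was Pcyt1a. Each motif was thus held by 1 of the 6 called members (16.7%), beside 22.6% and 12.9% of the 31 members. The other Lpin2 promoters held none of the motifs. Whether the motifs go with the calls was not tested. A match describes these letters only. The promoters of Agpat5, Ptdss1 and S1pr1 were not analysed here.

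The remaining glycerophospholipid members were not called. Ptdss1 and Ptdss2, which exchange the head group of phosphatidylcholine or phosphatidylethanolamine for serine, had log2 changes of 0.09 (95% interval -0.05 to 0.23) and -0.05 (-0.23 to 0.13). Pisd, the mitochondrial decarboxylase that turns phosphatidylserine into phosphatidylethanolamine, had 143.4 and 152.8 CPM in Con and 136.0 and 140.7 CPM in Fat (log2 change -0.10, adjusted p = 0.353). Crls1, which makes cardiolipin, lay between 19.4 and 19.9 CPM in all 4 libraries, with a log2 change of 0.00 (95% interval -0.17 to 0.17). The phospholipases showed no call either. Pla2g7 had 2703 and 2396 CPM in Con and 2428 and 2349 CPM in Fat (log2 change -0.09, 95% interval -0.31 to 0.12), and the lysosomal Pla2g15 had 221.0 and 219.9 CPM in Con and 226.8 and 219.4 CPM in Fat (log2 change 0.02, 95% interval -0.11 to 0.14).

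The calls of this arm did not rest equally on the 4 libraries. Lpin2 and Lpcat2 were called with each library left out in turn, with log2 changes of 0.31 to 0.47 and -0.82 to -0.42. Pcyt1a was not called without Con replicate 1 (0.28, adjusted p = 0.0648) or Fat replicate 1 (0.33, adjusted p = 0.0787), and Cept1 was not called without Con replicate 1 (-0.27, adjusted p = 0.102) or Fat replicate 2 (-0.26, adjusted p = 0.151). Lpcat1 was not called without any of the 4 libraries (adjusted p = 0.0635 to 0.192) nor by DESeq2 on the recovered reads (adjusted p = 0.0594). With the TPM values, Cept1, Lpcat1 and Lpcat2 were not called (adjusted p = 0.0878, 0.0598 and 0.0564). Without its mean-variance trend, limma gave the 6 called members of both arms adjusted p = 0.113 to 0.165. In the GENCODE M21 annotation (GRCm38), 25.2% of the exon bases of Cept1 lie under Dennd2d on the other strand, 11.3% of those of Pcyt1a under Slc51a and 10.2% of those of Lpcat2 under Gm45472, and 39.1% of those of Pisd lie under Gm20671 on the same strand. The library kit keeps strand, and whether the counting used it is not given in the sources used here. Dennd2d itself had 5.88 to 7.34 CPM and was not called (log2 change -0.02). Slc51a, Gm45472 and Gm20671 had no values under these symbols, so their levels could not be checked.

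In the making of ceramide, Cers4 was the only called member of 8, where 9.0% of all tested genes were called. Cers4 encodes a ceramide synthase that prefers long acyl chains, and it fell from 17.2 and 18.5 CPM in Con to 13.3 and 14.4 CPM in Fat. The means were 17.8 ± 0.947 and 13.9 ± 0.795 CPM (SD, n = 2), with a log2 change of -0.36 (SE 0.09, adjusted p = 0.0456). Of the exon bases of Cers4, 9.35% lie under Vmn2r-ps89 on the other strand, which had no values under this symbol. The call of Cers4 lies near the threshold. It was lost without any of the 4 libraries (adjusted p = 0.0748 to 0.153), with no filter on low values (0.0611), with TPM (0.0922) and with DESeq2 (0.0704), with a log2 change of -0.42 to -0.30 throughout.

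The other ceramide synthases were not called. Cers2, which makes very long-chain ceramides, had 280.1 and 294.5 CPM in Con and 324.3 and 318.3 CPM in Fat (log2 change 0.16, 95% interval 0.03 to 0.29, adjusted p = 0.126). Cers6, which prefers palmitoyl-CoA, had 206.9 and 180.9 CPM in Con and 182.4 and 146.3 CPM in Fat, so that Fat replicate 1 lay within the Con range (log2 change -0.24, adjusted p = 0.228). With a library left out, the log2 change of Cers6 ran from -0.40 (without Fat replicate 1) to -0.08 (without Fat replicate 2), so its size rests on single libraries. Cers5 lay between 70.5 and 74.9 CPM (log2 change -0.05, 95% interval -0.18 to 0.08). Of the summed TPM of these 4 synthases, Cers2 held 59.5% and 62.3% in Con and 65.4% and 66.9% in Fat, Cers6 held 22.6% and 19.6% in Con and 18.9% and 15.8% in Fat, and Cers4 held 2.0% and 2.15% in Con and 1.48% and 1.67% in Fat. Cers4 is thus a small part of the ceramide synthase messages in these macrophages. The summed level itself was 510.6 and 502.8 TPM in Con and 544.9 and 522.5 TPM in Fat.

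**Figure D4:**
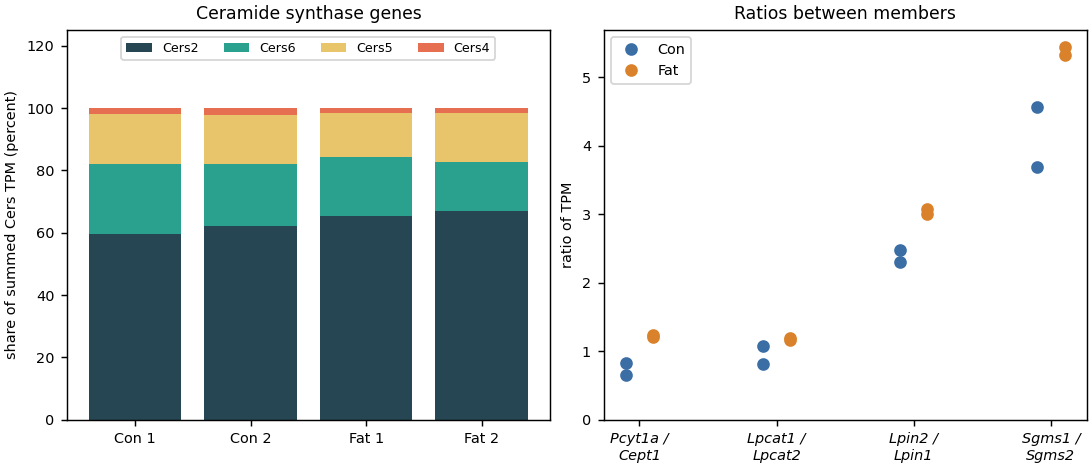
Left, the share of the summed TPM of Cers2, Cers4, Cers5 and Cers6 held by each gene in each library, in percent. Right, TPM ratios between members in each library (blue, Con; orange, Fat). The share of Cers2 is 59.5% and 62.3% in Con and 65.4% and 66.9% in Fat, and the Pcyt1a to Cept1 ratio is below 1 in both Con libraries and above 1 in both Fat libraries.

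The enzymes that make the ceramide backbone were not called. Serine palmitoyltransferase is a complex, and its subunit gene Sptlc1 had 78.9 and 74.0 CPM in Con and 67.0 and 65.2 CPM in Fat (log2 change -0.21, 95% interval -0.35 to -0.07, adjusted p = 0.0728). Its partner Sptlc2 had 167.2 and 163.9 CPM in Con and 172.5 and 165.0 CPM in Fat, where the groups overlap (log2 change 0.03, 95% interval -0.10 to 0.15). Neither subunit gene passed the test. Kdsr, the reductase of the next step, and Degs1, which introduces the double bond that makes ceramide, had log2 changes of -0.04 (95% interval -0.21 to 0.13) and 0.02 (-0.14 to 0.18).

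Among the genes that convert ceramide, 0 of 4 were called, where 9.0% of all tested genes were called. The groups did not overlap in these genes, with 2 above and 2 below in Fat, where 55.6% of all tested genes did not overlap. Sgms1, the Golgi sphingomyelin synthase, had 133.7 and 148.5 CPM in Con and 165.1 and 168.6 CPM in Fat (log2 change 0.24, SE 0.06, adjusted p = 0.0608). With a library left out, its log2 change ran from 0.17 (without Con replicate 1) to 0.32 (without Con replicate 2). Sgms2, the sphingomyelin synthase of the plasma membrane, had 46.2 and 41.5 CPM in Con and 39.5 CPM in each Fat library (log2 change -0.15, adjusted p = 0.257). The TPM ratio of Sgms1 to Sgms2 was 3.69 and 4.57 in Con and 5.33 and 5.45 in Fat. Ugcg, which makes glucosylceramide, had a log2 change of -0.14 (95% interval -0.28 to 0.01), and Cerk, which makes ceramide-1-phosphate, had 0.12 (-0.02 to 0.26).

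Neither the enzymes of S1P nor its receptors were called. Sphk1, the inducible sphingosine kinase, had 18.5 and 25.8 CPM in Con and 21.7 and 21.5 CPM in Fat, so the Con libraries enclosed the Fat libraries. Its log2 change was -0.02 with a 95% interval of -0.35 to 0.32, and its Con libraries were 0.48 apart on the log2 scale, the most of the 34 members. Sphk2 had a log2 change of -0.07 (95% interval -0.25 to 0.11). Its exon bases lie in part under Dbp (13.0%) and Rpl18 (8.97%) on the other strand, neither of them called. Sgpp1, which removes the phosphate of S1P, had 91.2 and 86.3 CPM in Con and 78.7 and 79.0 CPM in Fat (log2 change -0.17, adjusted p = 0.111). Sgpl1, which cleaves S1P irreversibly, had 718.5 and 707.5 CPM in Con and 731.3 and 697.5 CPM in Fat (log2 change 0.00, 95% interval -0.14 to 0.15).

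The receptor S1pr1, which couples to Gi and guides the migration of immune cells, had 61.5 and 58.3 CPM in Con and 53.1 and 62.5 CPM in Fat. The Fat libraries lay on either side of the Con libraries, and the means were 59.9 ± 2.25 and 57.8 ± 6.62 CPM (SD, n = 2), with a log2 change of -0.06 (SE 0.08, 95% interval -0.25 to 0.14, adjusted p = 0.739). S1pr2, another receptor of S1P, had 128.2 and 146.1 CPM in Con and 136.3 and 144.4 CPM in Fat, with both Fat libraries inside the Con range. Its means were 137.1 ± 12.6 and 140.3 ± 5.76 CPM (SD, n = 2), with a log2 change of 0.04 (SE 0.07, 95% interval -0.14 to 0.21, adjusted p = 0.816). By length-scaled level S1pr2 was above S1pr1 in each library, at ratios of 2.24 and 2.69 in Con and 2.76 and 2.49 in Fat. Over the whole sphingolipid arm, edgeR's quasi-likelihood test on the recovered reads called 0 members higher and 1 lower, where it called 9.13% of all tested genes. DESeq2 called 0 in either direction, where it called 8.43% of all tested genes. In limma 5 of 18 had an unadjusted p under 0.05 (24.1% of all tested genes).

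A list of other genes of these pathways was drawn up by role to set beside the members. Earlier results of these data were known when it was made, so its share of calls is not an independent rate. Of 40 other sphingolipid genes tested, 4 were called higher and 2 lower, where 3.99% of all tested genes were called higher and 5.0% lower. The largest change was that of Smpdl3b, a membrane-anchored relative of acid sphingomyelinase, which fell from 24.0 and 17.2 CPM in Con to 8.47 and 7.46 CPM in Fat (log2 change -1.34, SE 0.16, adjusted p = 0.00468). The genes called higher were Samd8 (0.31), which makes the ethanolamine analogue of sphingomyelin, the lipid phosphate phosphatase Ppap2b (0.35), Ormdl3 (0.28), whose product restrains serine palmitoyltransferase, and the S1P receptor S1pr3 (0.63). S1pr3 had 6.01 and 7.01 CPM in Con and 9.14 and 11.1 CPM in Fat (SE 0.13, adjusted p = 0.0304). Of the 4 S1P receptor genes tested (S1pr1 to S1pr4) S1pr3 was the only one called, at a length-scaled level below S1pr1 and S1pr2 (mean 3.14 TPM in Con and 5.0 TPM in Fat).

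Of 60 other glycerophospholipid genes tested, 8 were called higher and 4 lower. Gpd1, the cytosolic dehydrogenase that makes glycerol-3-phosphate, rose from 3.13 and 3.39 CPM in Con to 9.03 and 7.73 CPM in Fat (log2 change 1.33, SE 0.13, adjusted p = 0.00347). The mitochondrial Gpd2, which consumes it, fell from 54.0 and 48.2 CPM to 41.7 and 38.7 CPM (log2 change -0.34, adjusted p = 0.0339). Agpat3, an acyltransferase of the same family as the members Agpat4 and Agpat5, rose from 73.1 and 77.9 CPM to 106.2 and 108.7 CPM (log2 change 0.51, SE 0.06, adjusted p = 0.00447). Lpcat3, which puts polyunsaturated chains into phosphatidylcholine, rose from 50.5 and 51.7 CPM to 62.2 and 61.5 CPM (log2 change 0.27, adjusted p = 0.0255), whereas the members Lpcat1 and Lpcat2 fell. Also higher were Gpcpd1 (0.46), Abhd12 (0.30) and Pnpla6 (0.29), which break down glycerophosphocholine or lysophospholipids, and, outside the rule for named genes and picked after their values were seen, Slc44a1 (0.30) and Abhd3 (0.39). The phospholipase Pla2g16 fell from 47.9 and 45.4 CPM to 25.7 and 22.2 CPM (log2 change -0.96, SE 0.08, adjusted p = 0.00286), and Ddhd1 (-0.47) and Pld4 (-0.36) fell as well. Over both lists 18 of 100 genes were called, beside 9.0% of all tested genes. That count was 11 without Con replicate 1 and 6 without Fat replicate 2.

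**Figure D5:**
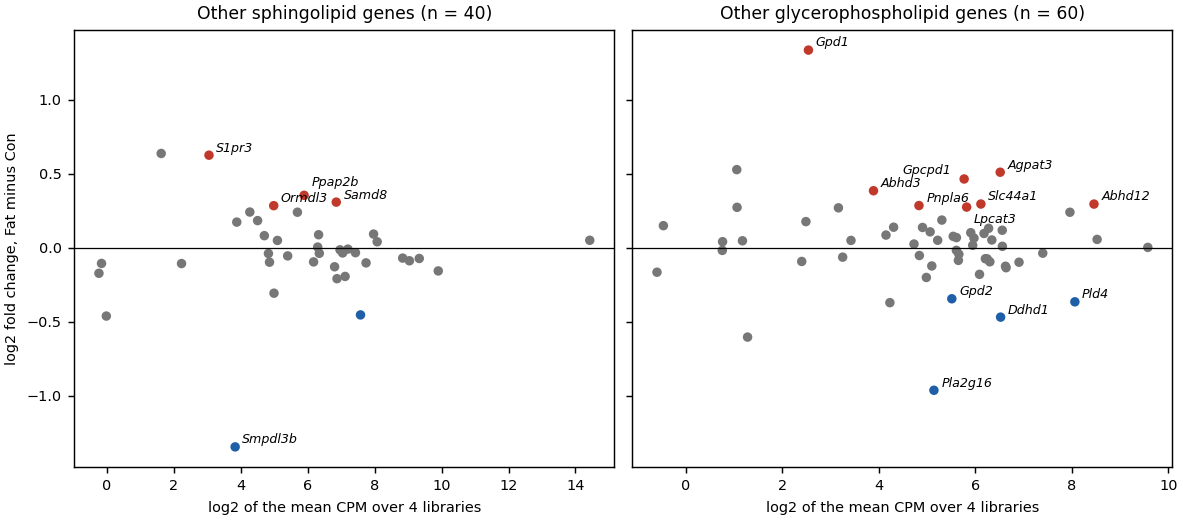
Log2 fold change (Fat minus Con, of CPM + 0.1) against log2 of the mean CPM over 4 libraries for the other sphingolipid genes (left, 40 genes) and glycerophospholipid genes (right, 60 genes). Each point is a gene, called higher (red), called lower (blue) or not called (grey). Smpdl3b at -1.34 and Gpd1 at 1.33 lie farthest from zero.

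Genes of fat cells were present in the Fat libraries at low levels. The 12 adipocyte markers summed to 0.236 and 0.320 CPM in Con and 13.0 and 6.90 CPM in Fat, and 10 of the 12 were higher in both Fat libraries than in both Con libraries. Of all tested genes, 29.4% were higher in both Fat libraries, and only 3 of the 12 markers were among the tested genes. Adipoq, Cidea, Lep, Pck1 and Thrsp were at 0 in both Con libraries. Car3 was the most abundant in Fat, at 7.21 and 3.39 CPM beside 0.0295 and 0.0267 CPM in Con. Gpd1, Agpat3, Pla2g16, Gpam, Lpin1 and Agpat2 are also expressed in fat cells, and the part of fat-cell messages in their values was not tested. These genes did not move in 1 direction. Gpd1 (log2 change 1.33) and Agpat3 (0.51) were called higher and Pla2g16 (-0.96) was called lower. Gpam (0.08), Lpin1 (0.04) and Agpat2 (-0.05) were not called. Summed markers of other cells were 300 and 317 CPM in Con and 258 and 345 CPM in Fat for fibroblasts, of which 3 of 5 had both Fat libraries below Con and Dcn was called lower (log2 change -0.82), and 325 to 369 CPM in Con and 315 CPM in Fat for neutrophils. Lymphocyte markers summed to 10.3 to 12.7 CPM, endothelial markers to 4.58 to 7.56 CPM and dendritic cell markers to 0.390 to 0.826 CPM over the 4 libraries. Both Fat libraries were also below Con for 3 of 4 neutrophil and 3 of 4 lymphocyte markers, and above Con for 3 of 4 endothelial markers. Among all tested genes 26.2% were below and 29.4% above. The part of the macrophage markers that were lower in Fat in the calls of Lpcat1, Lpcat2, Cept1 and Cers4 was likewise not tested.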

How the data were processed

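Poly(A) RNA of 4 macrophage libraries, 2 Con and 2 Fat by their labels, was sequenced in single-read mode. The authors deposited CPM values for 17013 genes, which equal reads divided by the library total and by TMM factors of 0.990 to 1.01, and TPM values, also scaled for gene length. The genome build is GRCm39 per the submitters' processing notes, and the aligner, counter and annotation are not given in the sources used here. Whole reads were recovered for 100% of the CPM values (within 0.01 reads), and 1 read was worth 0.0244 to 0.0295 CPM.

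Fat was compared with Con with limma 3.58.1 in R 4.3.3, with a mean-variance trend, on log2(CPM + 0.1) for 12470 genes, those that reached 0.5 CPM in 2 or more of the 4 libraries. Tests were two-sided, with Benjamini-Hochberg adjustment over all tested genes and calls at an adjusted p under 0.05. An exact permutation test of 2 against 2 libraries cannot go below p = 0.333, so none was used. TPM served to compare levels between genes. The members and the lists were chosen with earlier results of these data known. Full statistics are given for called members, for members whose groups do not overlap with an absolute log2 change of at least 0.5, and for S1pr1 and S1pr2. Other pathway genes were named up to 6 per arm and direction by adjusted p.

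Alternatives were a pseudocount of 1, no filter, a filter on a mean of 5 CPM, TPM values, median-ratio scaling, no trend, the replicate number as a block, edgeR 4.0.16 (quasi-likelihood) and DESeq2 1.42.0 on recovered reads, and each library left out. On recovered reads edgeR called 490 genes higher and 648 lower. The fits were tested on simulated data. Exon overlaps came from GENCODE M21 and promoters from RefSeq (GRCm38.p6), both matched by symbol. Of the other genes listed by hand, 47 of 52 sphingolipid and 63 of 63 glycerophospholipid genes were in the deposited values, and 1 of the genes called is counted but not reported here by name. The study's methods name edgeR, which was an alternative here because the deposited unit is CPM.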

Additional observations from a re-analysis of the deposited data

How the results depend on the processing

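Of the 1 sphingolipid and 5 glycerophospholipid members called, 0 and 2 were called with TPM values, where 6.34% of all tested genes were called. Without the mean-variance trend 0 and 0 were called, where 31 of all genes and 0 of the other pathway genes were called. The sphingolipid count was also 0 with no filter (5.61% of all genes called) and with DESeq2 on recovered reads (8.43%). With a library left out, the count was 0 to 1 for the sphingolipid members, 2 to 4 for the glycerophospholipid members, 529 to 1131 for all genes (1122 with all libraries) and 6 to 17 for the other pathway genes (18 with all libraries), lowest for all genes without Fat replicate 2 (529) and Con replicate 1 (666). The sphingolipid member called with a library left out was never Cers4. It was Sgms1 without Con replicate 2 (log2 change 0.32) and Cers6 without Fat replicate 1 (-0.40). With a library left out, the median log2 change of the sphingolipid members ranged from -0.0851 (without Fat replicate 2) to -0.0159. That of the glycerophospholipid members ranged from 0.00311 to 0.0237. With TPM values these medians were -0.0111 and 0.0405, and the latter was -0.000258 with median-ratio scaling, so its sign carries no weight. The median over all tested genes shifted as well. It was 0.0122 with the CPM values, 0.0435 with TPM values and 0.00345 with median-ratio scaling. The causes of these differences were not tested. None of the 6 called members changed sign in any of the 13 alternatives, and 13 uncalled members did in at least 1. The replicate numbers form 2 pairs of unstated meaning, and deviations from the group means correlated at 0.200 between numbers over the tested genes and at 0.339 over those with a mean of at least 5 CPM. With the replicate number as a block, 5 sphingolipid members (Cers4, Sptlc1, Cers6, Sgms1 and Sgpp1), 6 glycerophospholipid members (with Agpat4 added), 30 other pathway genes and 2520 of all genes were called. That fit leaves 1 residual degree of freedom beside 28.4 prior ones, against 2 and 5.42 without the block. With 2 libraries per medium, small changes of the uncalled members cannot be told from the spread between libraries.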
